A study of Mus musculus with 6 samples.

Results

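The 44 collagen chain genes of the mouse were followed here, taken as every gene symbol made of Col, a number, the letter a and a second number, out of 31017 symbols in the count tables. They fall into 11 genes of fibrillar chains, 9 of basement membrane chains and 24 others, and 42 of them had at least 1 UMI (a unique molecular identifier, which counts 1 captured transcript molecule). Col10a1 and Col22a1 had no UMI in any cell. The cells came from dermal collecting lymphatic vessels running from the inguinal to the axillary lymph node of C57BL/6 mice, with fat and connective tissue trimmed away and the vessels digested with collagenase, elastase and dispase. There were 6 10x libraries, 2 for each age of 6 weeks, 12 months and 18 months, with replicate 1 labelled male and replicate 2 labelled female. No label says how many mice made up a library, so the p-values below measure only the spread between libraries.

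Collagens are trimers of chains wound into a triple helix. Fibrillar collagens are secreted as procollagens, trimmed at both ends and cross-linked into the fibres that carry tension in skin and vessel walls. Basement membrane collagens form the sheet-like network under endothelium, around muscle and around Schwann cells, and the other collagens decorate fibrils, build beaded filaments around cells or span the cell membrane.

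A cell barcode was used when 500 genes or more were detected in it and mitochondrial transcripts made up no more than 10% of its UMIs. This held for 24488 barcodes, and 23898 cells remained once 590 marked doublets were removed. Libraries held 999 to 8228 such barcodes with a median of 2536 to 7508 UMIs, and 63 barcodes occurred in more than 1 library. Both 12-month libraries went against their sex labels: the female-specific transcript Xist was at 1406 CPM (UMIs scaled to a common library total) in the library labelled male and at 0.255 CPM in the one labelled female, and Y-linked genes summed to 0.111 and 265 CPM. Clusters were made without collagen genes, and the clusters of fibroblasts in particular differed in cell number between libraries. The fibroblast markers Pdgfra, Dcn, Lum and 7 more were all present in the fibroblast class of every library. UMIs were read from the 3′ end of each transcript, so levels need no scaling by transcript length.

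The genes of the main chains of basement membrane collagen lie head to head, and their sequences are shown because their levels are compared throughout. Col4a1 (ENSMUSG00000031502) occupies chr8:11198423-11312826 on the minus strand and Col4a2 (ENSMUSG00000031503) occupies chr8:11312805-11449287 on the plus strand (GENCODE M21, GRCm38), so their start sites are 21 bases apart and the annotated genes overlap at their first bases. The RefSeq windows below run from 250 bases before to 50 bases after each start on GRCm38.p6, at chr8:11312777-11313076 for Col4a1 and chr8:11312555-11312854 for Col4a2. Capitals mark the 78 bases that both windows hold, each read on its own strand.
Col4a1: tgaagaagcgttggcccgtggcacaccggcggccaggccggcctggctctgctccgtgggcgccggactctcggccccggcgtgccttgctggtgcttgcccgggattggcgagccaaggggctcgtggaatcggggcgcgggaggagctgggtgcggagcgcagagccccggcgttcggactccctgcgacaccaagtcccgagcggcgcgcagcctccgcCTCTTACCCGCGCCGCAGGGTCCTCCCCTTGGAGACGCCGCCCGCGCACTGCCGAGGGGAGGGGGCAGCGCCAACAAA
Col4a2: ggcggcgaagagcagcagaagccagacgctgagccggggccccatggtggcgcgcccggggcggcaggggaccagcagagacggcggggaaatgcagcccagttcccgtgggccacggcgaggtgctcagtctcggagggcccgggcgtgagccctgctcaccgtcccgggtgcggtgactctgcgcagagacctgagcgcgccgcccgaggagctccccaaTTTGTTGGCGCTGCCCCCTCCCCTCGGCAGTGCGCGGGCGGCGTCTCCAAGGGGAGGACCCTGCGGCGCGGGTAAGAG

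Windows of fibrillar chain genes that lead the results are shown for comparison: Col1a2 (ENSMUSG00000029661) at chr6:4505368-4505667 and Col3a1 (ENSMUSG00000026043) at chr1:45311288-45311587, both on the plus strand. Capitals mark CCAAT or TATAAA, or their reverse complements ATTGG and TTTATA.
Col1a2: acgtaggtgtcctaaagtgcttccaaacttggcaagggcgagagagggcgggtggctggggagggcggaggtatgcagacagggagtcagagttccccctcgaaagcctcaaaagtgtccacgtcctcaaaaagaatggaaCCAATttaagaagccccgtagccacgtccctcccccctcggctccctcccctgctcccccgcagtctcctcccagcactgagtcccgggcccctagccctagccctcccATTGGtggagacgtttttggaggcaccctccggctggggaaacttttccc
Col3a1: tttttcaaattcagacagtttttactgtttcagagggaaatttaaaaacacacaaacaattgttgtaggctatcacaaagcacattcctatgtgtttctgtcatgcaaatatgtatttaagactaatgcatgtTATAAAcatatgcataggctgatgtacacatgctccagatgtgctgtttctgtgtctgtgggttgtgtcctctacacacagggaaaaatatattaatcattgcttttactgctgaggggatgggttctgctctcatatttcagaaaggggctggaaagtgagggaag

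Both strands were searched for 3 motifs in the 38 windows of the 35 collagen genes that RefSeq's table holds. CCAAT was in 34.2% of the collagen windows and in 37.4% of all 32851 windows. TATAAA was in 13.2% and 13.6%. GGGCGG, the GC box, was in 60.5% and 35.7%. Col4a1 held 1 match to GGGCGG, Col4a2 held 3 and Col1a2 held 2, while the Col3a1 window had 0 and held 1 TATAAA. A match is a run of letters, not a site shown to be used.

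Fibrillar chains made up most of what was counted. They took 85.2% of the collagen UMIs of all cells, with Col3a1 at 32.6%, Col1a2 at 28.9% and Col1a1 at 18.8%. These shares pool the libraries, and 324792 of the Col3a1 UMIs came from fibroblasts of the first 6-week library. In fibroblasts Col3a1 exceeded Col1a2 in both 6-week libraries and lay below it in all 4 older ones. Col1a1 and Col1a2 encode the chains of type I collagen, the main fibre of skin, and Col3a1 encodes the chain of type III collagen, which is mixed into the same fibres. Basement membrane chains took 4.48% of the UMIs and the others 10.4%, of which the beaded filament chains of type VI collagen held 7.91% of the total. Within the fibroblast class, collagens were 6.15% and 2.46% of UMIs in the 6-week libraries, 1.12% and 0.869% in the 12-month libraries, and 1.07% and 1.30% in the 18-month libraries. Each of the 4 older libraries was below both 6-week libraries, and the first 6-week library stood far above the other.

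Each structural cell class carried its own mix, as the plot of mean levels by class shows. These are descriptions with no test, since the classes were made by clustering the same cells. Macrophages and low-count barcodes were taken as a measure of free RNA: Col1a1 was at 242 and 33.2 CPM in macrophages of the 6-week libraries and at 2.63 to 8.38 CPM in the other 4.

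**Figure D1:**
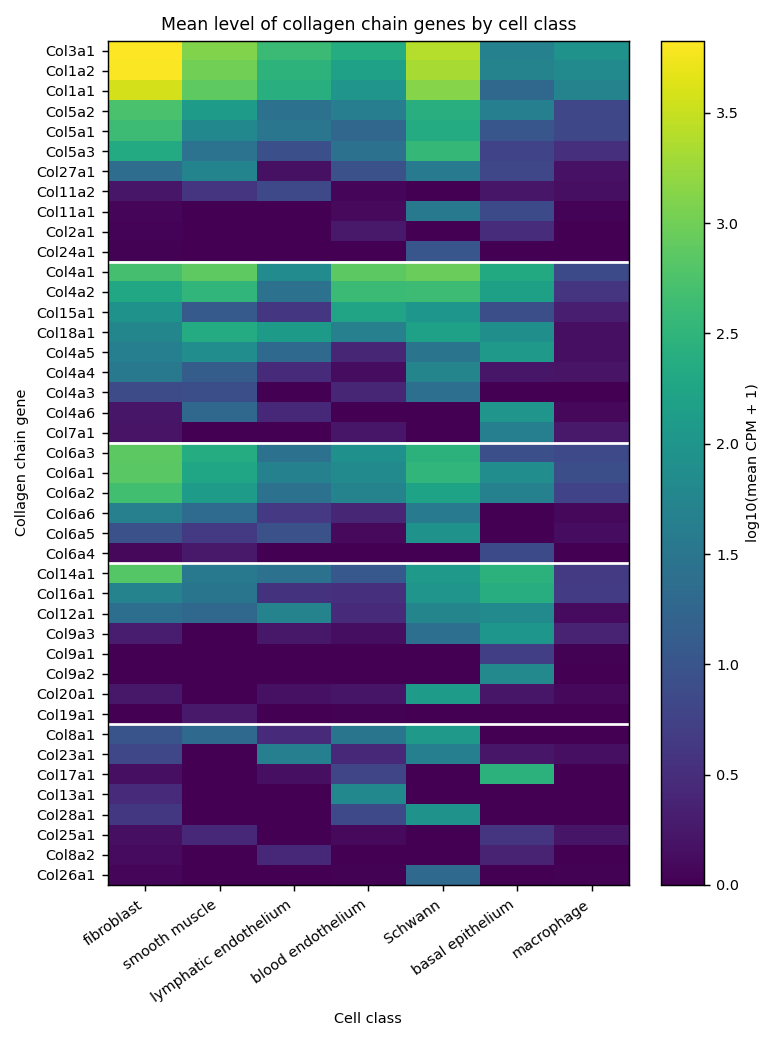
Mean level of the 42 collagen chain genes with a UMI (rows, in their 5 groups) in 7 cell classes (columns), as log10 of mean CPM plus 1 over libraries with at least 20 cells of the class. Fibrillar chains are brightest in fibroblasts, Col4a1 and Col4a2 are bright in fibroblasts, muscle and blood endothelium, and Col13a1 is brightest in blood endothelium.

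Fibroblasts held the highest fibrillar levels. Col1a1 was higher there than in smooth muscle and lymphatic endothelium in 5 of 5 libraries each, and than in blood endothelium and macrophages in 6 of 6. Mean levels in fibroblasts were 6716 CPM for Col3a1, 6281 CPM for Col1a2, 3787 CPM for Col1a1, 536 CPM for Col5a2 and 423 CPM for Col5a1. The mean puts Col3a1 first through the 6-week libraries: at 12 months it was at 2767 and 1744 CPM with Col1a2 at 2937 and 3027 CPM, and at 18 months at 2659 and 2801 CPM with Col1a2 at 3414 and 3692 CPM. Col5a2 and Col5a1 are the pair encoding chains of type V collagen, which sits in the core of type I fibrils. Col6a3, a chain of the beaded filaments, was at a mean of 729.7 CPM in fibroblasts and was higher there than in each of the other 4 classes compared in every library. Col14a1, which encodes a fibril-associated chain, was at 655 CPM in fibroblasts and at 10.3 CPM in blood endothelium.

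Blood endothelium had little fibrillar collagen and much type IV. Its single cluster, led by Aqp1, Gpihbp1, Fabp4 and Flt1, also had the pericyte marker Rgs5 among its 10 leading genes, and 7 of 7 pericyte markers summed to 676 to 1748 CPM in it, with 1932 to 3883 CPM in smooth muscle. The part of pericyte transcripts in its collagens was not tested. Basement membrane chains made up 63.5% ± 13.3 (SD, n = 6 libraries) of its collagen UMIs, against 5.30% ± 1.62 (SD, n = 6) in fibroblasts. Col4a1 was at 1004 and 996 CPM in the 6-week libraries, 686 and 603 CPM at 12 months and 314 and 733 CPM at 18 months, above the fibroblast level in 5 of 6 libraries. Col13a1, which encodes a transmembrane collagen, stood out. It was at 15.9, 88.0, 53.1, 27.1, 75.0 and 106 CPM in the 6 libraries in age order, and at 0 to 5.10 CPM in fibroblasts. No macrophage held a Col13a1 UMI, and low-count barcodes, which sample free RNA, held 1.0 to 4.5 CPM of it. Col13a1 was higher in blood endothelium than in fibroblasts and macrophages in 6 of 6 libraries. Col15a1, a chain of the outer basement membrane zone of capillaries and muscle, averaged 171 CPM in blood endothelium and 91.7 CPM in fibroblasts, and was higher in blood endothelium in 5 of 6 libraries.

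Smooth muscle combined type IV with Col18a1, whose product is the precursor of endostatin. Its highest means were still those of Col1a1, Col1a2 and Col3a1, through the 6-week libraries. Col3a1 was at 4768 and 1133 CPM at 6 weeks and at 75.6 to 172 CPM later. Fibrillar chains made up 38.9% ± 25.3 (SD, n = 5 libraries) of muscle collagen UMIs and basement membrane chains 45.3% ± 21.5. Col18a1 was at 247 and 288 CPM at 6 weeks, 171 and 170 CPM at 12 months and 258 CPM in the single 18-month library with enough muscle cells. It was higher in muscle than in fibroblasts, lymphatic endothelium and blood endothelium in 5 of 5 libraries each. Col4a1 averaged 746 CPM in muscle and Col4a2 329 CPM, while Col4a6 averaged 17.8 CPM there and 0.71 CPM in fibroblasts.

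Lymphatic endothelium, the inner lining of the vessel under study, had less Col4a1 and Col4a2 than fibroblasts, smooth muscle and blood endothelium in 5 of 5 libraries each, with means of 70.0 and 26.3 CPM. Of the other type IV chains, Col4a5 averaged 19.3 CPM, from 25 UMIs in all, and was higher than in blood endothelium in 4 of 5 libraries. Col18a1 averaged 122 CPM there and Col23a1, a transmembrane collagen, 43.9 CPM. Col23a1 was at 65.0, 82.2, 13.04, 36.5 and 23.0 CPM in the 5 libraries with enough cells, from 8, 11, 1, 33 and 18 UMIs, and was higher there than in fibroblasts in 5 of 5. Only 21 to 96 cells stood behind each of these sums.

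Schwann cells reached 20 cells in 1 library, the first at 6 weeks, with 97 cells and 206491 UMIs. The values of Schwann cells therefore have no replicate, and their exact Poisson 95% intervals cover counting error only. Highest were Col3a1 at 2489 CPM (2279 to 2714), Col1a2 at 2097 CPM (1904 to 2304) and Col1a1 at 1361 CPM (1206 to 1530). Low-count barcodes of that library held 5721, 4306 and 3548 CPM of them. Fibrillar chains were 67.7% of the Schwann collagen UMIs and basement membrane chains 16.7%. Col4a1 was at 906 CPM (780.5 to 1045) and Col5a3, a type V chain, at 353.5 CPM (277 to 444.5). Col20a1 was at 126 CPM (82.3 to 184.5) in Schwann cells against 0.76 CPM on average in fibroblasts, and Col28a1, described in peripheral nerve, at 87.2 CPM (51.7 to 138) against 3.20 CPM. In the 26 Schwann cells pooled from the other 5 libraries, Col28a1 had 6 UMIs and Col20a1 had 0 of 70881 UMIs.

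Basal epithelium, a class of mammary cells found in 3 libraries, held Col17a1, the hemidesmosome collagen of epithelial cells, at 268, 201 and 391 CPM. Its collagen mix was the least fibrillar of these classes, at 9.00% ± 6.24 (SD, n = 3). Those 3 libraries were the 3 with Xist.

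The ratio of Col4a1 to Col4a2 UMIs was 2.65 ± 0.35 (SD, n = 6) in fibroblasts, 2.20 ± 0.45 (SD, n = 5) in smooth muscle, 1.74 ± 0.35 (SD, n = 6) in blood endothelium and 2.18 ± 0.21 (SD, n = 6) in free RNA. For type I collagen, Col1a1 had fewer UMIs than Col1a2 in fibroblasts, with a ratio of 0.51 ± 0.12 (SD, n = 6) and a highest value of 0.729 in the first 6-week library.

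Fibroblasts formed 8 clusters, and the collagens differed among them in both amount and kind. The heat map of fibroblast clusters gives mean levels. No cluster had 20 cells in all 6 libraries, so cluster and library cannot be fully told apart, and no test was made between clusters. Most cells of clusters 7, 8 and 10 were in libraries with Xist, and most of clusters 4, 6, 11 and 19 in those with Y-linked genes. Cluster 10 had 712, 597 and 41 cells in libraries with Xist and 17, 1 and 19 in the others. The part of sex in differences between clusters was not tested.

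**Figure D2:**
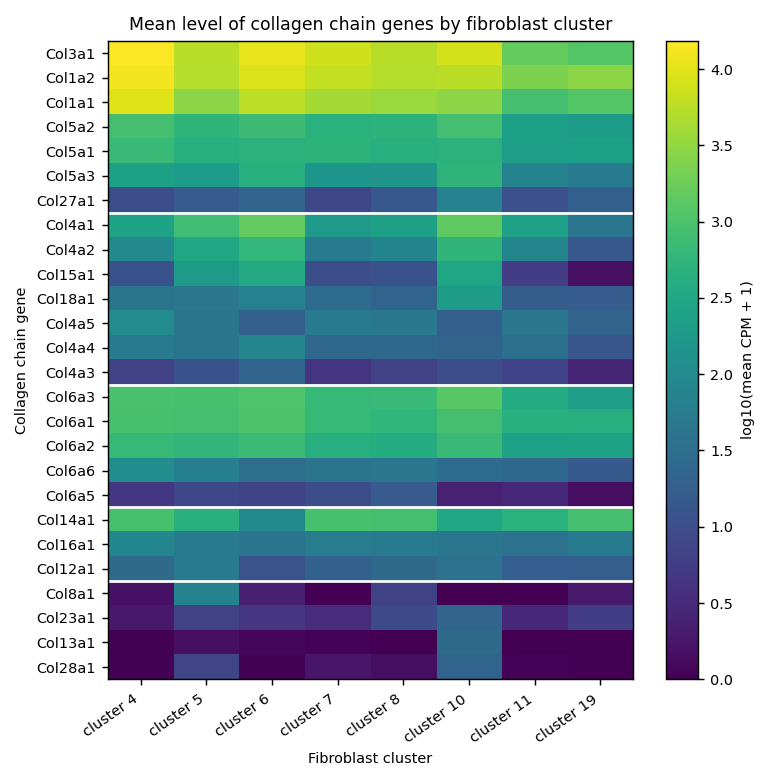
Mean level of the 26 collagen chain genes tested in fibroblasts (rows) in the 8 fibroblast clusters (columns), as log10 of mean CPM plus 1 over libraries with at least 20 cells of the cluster. Clusters 6 and 10 are brightest for Col4a1, Col4a2 and Col15a1. Clusters 11 and 19 are dimmest for the fibrillar chains, but only they have no 6-week library in their means. In the first library of the oldest age, fibrillar chains were 0.613% and 0.578% of their UMIs, against 0.557% in cluster 8. In the first library of the middle age clusters 11 and 19 were lowest, at 0.443% and 0.605%, with 0.653% in cluster 5. In the second they were at 0.520% and 0.514%, with 1.69% in cluster 6.

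Cluster 4, led by Sparc and Cpz, had 2455 of its 2506 cells in the first 6-week library so its mean of 15350 CPM for Col3a1 describes that library. Within the first 6-week library fibrillar chains were 6.10% of the UMIs of cluster 4 and 5.84% of those of cluster 6. Within the second they were 1.86% in cluster 4, below 2.62% in cluster 10 and 2.08% in cluster 7. Cluster 6, led by Agt, Car3 and Steap4, and cluster 10, led by Scg3, Cdh11 and Hmcn1, had the highest mean Col4a1 and Col15a1, followed by cluster 5, led by Cilp and Thbs4. Col15a1 was at 536, 307.5, 245 and 277 CPM in the 4 libraries of cluster 6 and at 343, 280 and 254 CPM in the 3 libraries of cluster 10. In the 5 libraries of cluster 5 it was at 132 to 335 CPM, with a mean of 193 CPM, which overlaps both. In the other clusters, 4, 7, 8, 11 and 19, mean Col15a1 was 0.52 to 10.5 CPM. Cluster 19, led by Dmkn and Krtdap and with Pi16 among its leading genes, had Col4a1 at 91.6, 16.8 and 22.3 CPM, and cluster 10 had it at 1200, 1507 and 1561 CPM.

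Between clusters 6 and 7, Col14a1 went the other way from Col15a1: it averaged 98.9 CPM in cluster 6 and 918 CPM in cluster 7. Cluster 7 is led by Akr1c18 and Smpd3. Most cells of these clusters were in different libraries, and Col14a1 was not compared over the other clusters. Col8a1, a short-chain network collagen, was highest in cluster 5. There it was at 241 CPM in the first 6-week library and 23.0 CPM in the other, at 0.7 CPM in the 12-month library and at 97.2 and 0 CPM at 18 months. The first of these values rested on 662 UMIs and the 97.2 CPM on 16.

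With age, no collagen was called in fibroblasts by edgeR's main fit, while some other settings called members lower. Most tested members had negative fitted changes at both older ages, and for 18 of 26 the sign held at both ages in every alternative analysis that tested them, while for 8 it turned when some 1 library was left out. This comparison asks how collagen levels in fibroblast sums differ between the 6-week and the older libraries. The cluster mix differed between libraries too, so age and cluster mix cannot be fully told apart in these sums. Cluster 4 had 2455 cells in the first 6-week library and 24 in the second. Cluster 19 had 621 cells in the first 18-month library, and 10 and 4 at 6 weeks. Of the 44 members, 26 passed the filter on low counts. In edgeR's quasi-likelihood test with Benjamini-Hochberg adjustment, 0 of 11932 genes (0% lower, 0% higher) were called at an adjusted p under 0.05 in any of the 3 age contrasts. At an unadjusted p under 0.05, 15 of 26 members were lower at 18 months than at 6 weeks against 3.24% of all genes lower, and 14 of 26 were lower at 12 months against 4.18%. Between 12 and 18 months the count was 1 of 26 against 2.25%. DESeq2 on the same sums called 6 members lower at 18 months, against 0.36% of genes, and 7 lower at 12 months, against 0.302%. With sex as a block and the 12-month labels exchanged, as Xist and the Y-linked genes have them, edgeR called 2 members lower at 18 months (Col8a1 and Col18a1), against 0.168% of genes, and 1 at 12 months (Col8a1), against 0.0838%. With the labels as given the block called 0. Without the filter on low counts edgeR called members lower at both older ages, as given below under the dependence on processing. The share of all genes called in that fit is not given, so its counts do not set collagens against other genes.

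The fitted change was negative for 24 of 26 members at both older ages, against 50.3% of all genes at 18 months and 51.8% at 12 months. The median log2 change of the members was -1.13 at 18 months, with -0.01 over all genes, and -1.21 at 12 months, with -0.03 over all genes. These contrasts share the 6-week libraries. All 4 older libraries lay below both 6-week libraries for 14 of 26 members, against 10.8% of all genes, and above both for 0 of 26, against 7.74%.

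**Figure D3:**
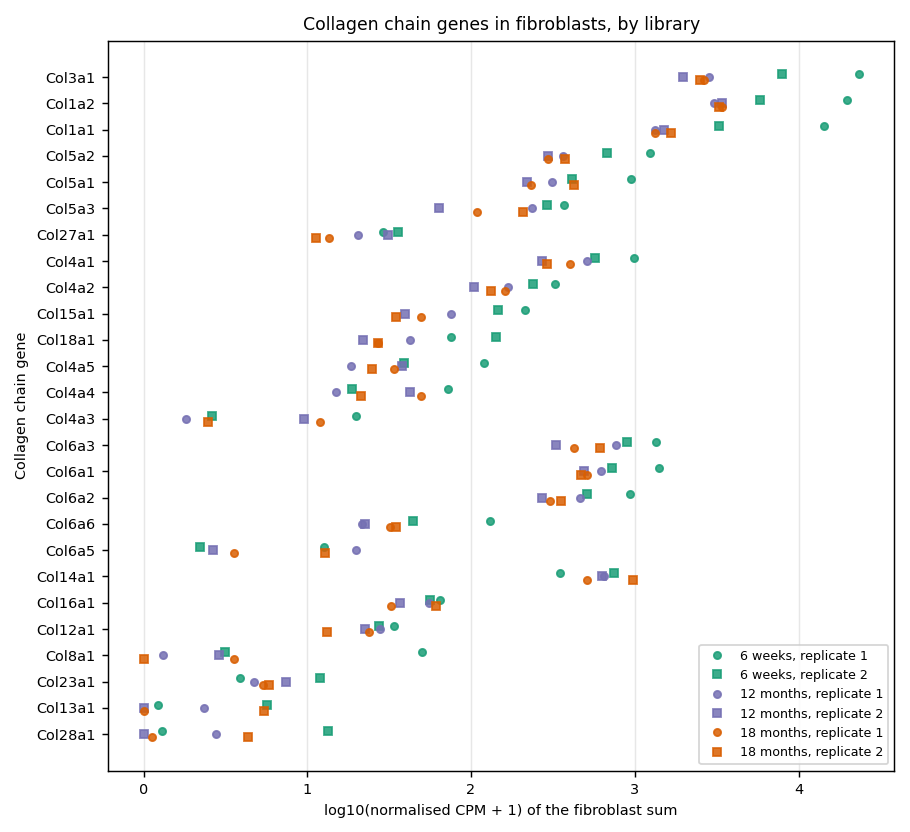
Level of each of the 26 tested collagen chain genes in the fibroblast sum of each of the 6 libraries, as log10 of normalised CPM plus 1; colour gives the age and shape the replicate. The 6-week points lie to the right for the type I and III chains, and the ages are mixed for Col14a1 and Col16a1.

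Levels below are normalised CPM, scaled by edgeR's TMM factors. Col3a1 was at 23292 and 7914 normalised CPM at 6 weeks, 2851 and 1970.5 at 12 months and 2636.5 and 2488 at 18 months. At 18 months the fitted change was -2.61 on the log2 scale (SE 0.53, edgeR adjusted p = 0.617). The groups did not overlap, yet the 6-week libraries differed from each other by more than the second of them differed from the older libraries on the linear scale. Col1a1 was at 14326 and 3261 normalised CPM at 6 weeks, 1326 and 1497 at 12 months, and 1332 and 1657 at 18 months, which gave -2.56 on the log2 scale (SE 0.64, edgeR adjusted p = 0.658) at 18 months. Col1a2 was at 19654 and 5786 at 6 weeks and at 3026 to 3420 in the older libraries. Col5a2 was at 1243 and 671 at 6 weeks and at 292 to 375 later. Of the 7 fibrillar chains tested, all 7 had negative changes at both older ages and 5 had an unadjusted p under 0.05.

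All 7 basement membrane chains tested had negative fitted changes, with a median log2 of -1.17 at 18 months against -1.52 for the fibrillar chains. For Col4a3 and Col4a4, chains of more restricted basement membranes, that sign rested on the first 6-week library. Col4a4 was at 71.2 and 17.7 normalised CPM at 6 weeks, 14.0 and 41.3 at 12 months and 48.7 and 20.3 at 18 months, and its groups overlapped. Without that library the log2 changes at 18 months were 0.99 for Col4a4 and 2.05 for Col4a3, and at 12 months 0.63 and 1.44. Col4a1 was at 990 and 569 normalised CPM at 6 weeks, 510 and 271 at 12 months and 402 and 289 at 18 months. Col15a1 was at 214 and 145 at 6 weeks and at 33.9 to 74.8 in the 4 older libraries, which gave -2.12 on the log2 scale (SE 0.40, edgeR adjusted p = 0.617) at 18 months. Col18a1 was at 74.9 and 141 at 6 weeks and at 21.0 to 41.3 later.

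Of the 5 beaded filament chains tested, 4 had negative values and an unadjusted p under 0.05 at 18 months. Col6a1 was at 1406.5 and 721 normalised CPM at 6 weeks, 624 and 486 at 12 months and 511 and 471 at 18 months. Col6a6 was at 129 and 43.1 at 6 weeks and 20.5 to 33.5 later. Col6a5 had a log2 change of 0.01 (SE 1.34) at 18 months, from levels of 1.20 to 18.9 normalised CPM.

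Of the 3 fibril-associated chains tested, 0 had an unadjusted p under 0.05 at either older age. Col14a1 was at 346 and 749.6 normalised CPM at 6 weeks, 643 and 634 at 12 months, and 509 and 971 at 18 months, with overlapping groups and a fitted value of 0.43 on the log2 scale (SE 0.45, edgeR adjusted p = 0.928), which was -0.02 without the first 6-week library and -0.11 without the second 18-month library. Col16a1 and Col12a1 had log2 changes of -0.40 (SE 0.36) and -0.74 (SE 0.35) at 18 months. Whether these chains differ from the fibrillar ones in their change with age was not tested. Col8a1, at 49.0 normalised CPM in the first 6-week library and 0 to 2.54 in the other 5, rested on that library.

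The first 6-week library carried much of the size of these changes. Without it, the median log2 change of the members tested was -0.70 at 18 months and -0.72 at 12 months. Direction held for 18 of the 26 members: for Col1a1, Col1a2, Col3a1, Col4a1, Col15a1 and Col18a1 it was negative in all 18 alternative analyses at 18 months.

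Among genes that act on collagen, 0 were called in fibroblasts at any age by edgeR's main fit. Of the 19 tested genes of folding and hydroxylation, 19 were negative at 18 months, with a median log2 of -0.67, and 6 had an unadjusted p under 0.05. Fkbp10, a prolyl isomerase for procollagen, had a log2 change of -1.10 (SE 0.35) and Plod1, a lysyl hydroxylase, -1.22 (SE 0.42). Of the 14 tested genes of propeptide removal and cross-linking, 10 were negative, among them Adamts2, the procollagen N-proteinase, at -1.29 (SE 0.31), Sparc, a collagen-binding matrix protein, at -2.33 (SE 0.68), and Lox, which oxidises lysines for cross-links, at -0.75 (SE 0.28). Of 8 collagen receptor genes tested, 3 were negative, with Mrc2, an endocytic receptor for collagen, at -0.98 (SE 0.41) and the receptor kinase Ddr2 at 0.56 (SE 0.26). All 6 tested genes of collagen breakdown were negative, with the protease Fap at -1.01 (SE 0.42) and the gelatinase Mmp2 at -0.58 (SE 0.27). In other sums some of these genes were called lower by edgeR: Sparc, Pcolce2, Tnxb and Mmp2 in smooth muscle at 12 months, Sparc and Pcolce2 in lymphatic endothelium at 12 months, Sparc in each at 18 months, and Sparc in fibroblast cluster 8 at 18 months.

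Within single clusters, a test between 18 months and 6 weeks could be made for clusters 5, 7 and 8, in which both ages had 2 libraries with at least 20 cells. In cluster 8, led by Ptx3 and Tac1, 2 of 20 tested members were called lower, against 0.158% of its genes. They were Col3a1, at 17520 and 3914 CPM at 6 weeks and 1313 and 2419 CPM at 18 months (log2 change -2.45, SE 0.47, edgeR adjusted p = 0.000355), and Col1a1, at 10770 and 2571 CPM against 1250 and 1990 CPM (log2 change -1.96, SE 0.46, edgeR adjusted p = 0.0116). These calls were lost in several settings: 0 members were called lower by DESeq2, with labelled sex as a block, and without the first 6-week library, either 18-month library or the 12-month library. Without the first 6-week or the first 18-month library, 1 member, Col6a5, was called higher instead, against 0.0833% and 0.0569% of genes. Without the second 6-week library 3 were called lower, against 0.168%. At an unadjusted p under 0.05, 4 of 20 were lower in cluster 8, against 1.75% of genes, and 0 members were called higher, against 0.101%. In cluster 7, 0 of 21 members were called against 0.0101% of genes, and 13 of 21 were lower at an unadjusted p under 0.05, against 1.64%. Col3a1 had a log2 change of -2.87 (SE 0.49) there. In cluster 5, 0 of 23 were called against 0%, and 14 of 23 were lower at an unadjusted p under 0.05, against 2.7%. Col3a1 had a log2 change of -1.83 (SE 0.53) there. Without 1 library the count of called members reached 7 in each: in cluster 5 without the second 6-week library, against 0.318% of genes, and in cluster 7 without the second 18-month library, against 0.696%. It was 2 and 3 in cluster 7 without the first or the second 6-week library, against 0.392% and 0.105%. Each such fit leaves an age with 1 library, whose spread is taken from the other libraries. The young libraries held 21 and 414 cells in cluster 8.

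In smooth muscle, fibrillar and beaded filament chains were called lower at 12 months than at 6 weeks and type IV chains were not. The 18-month group was a single library, since the other held 3 muscle cells, so its calls assume that it varies as the other groups do. At 12 months 8 of 12 tested members were called lower, against 2.33% of 2623 genes, and at 18 months 4 of 12, against 0.686%. All 5 fibrillar and all 3 beaded filament chains tested were called at 12 months, and 0 of the 4 basement membrane chains. With a single library at 18 months, the filter on low counts needed a high enough level in only a single library. Col5a1, at 192 and 71.9 CPM at 6 weeks and 0, 9.45 and 28.6 CPM later, passed it only through the 6-week libraries. So did Col5a2 and Col6a1. The counts of members tested and called in muscle thus partly reflect the filter. At an unadjusted p under 0.05, 10 of 12 were lower at 12 months, against 7.32% of genes, and 9 of 12 at 18 months, against 5.03%. None was called higher at 12 months, against 0.953%, or at 18 months, against 0.267%. Between 12 and 18 months 0 of 12 were called (0% of genes lower, 0.343% higher), and 0 were lower at an unadjusted p under 0.05, against 1.98%. Col3a1 was at 6229 and 1305 normalised CPM at 6 weeks, 90.4 and 91.0 at 12 months and 196 at 18 months, a log2 change of -5.38 (SE 0.53, edgeR adjusted p = 4.1e-11) at 12 months. Col1a1 was at 3980 and 539 at 6 weeks, 121 and 17.1 at 12 months and 109 at 18 months. Col6a1 was at 557 and 311, then 106 and 51.2, then 65.2. Col4a1 was at 1113 and 1533 at 6 weeks, 693 and 489 at 12 months and 608 at 18 months, a log2 change of -1.17 (SE 0.39, edgeR adjusted p = 0.0925) at 12 months.

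Fibroblast transcripts moved with these values in muscle. The 10 fibroblast markers, which contain no collagen, summed to 8471 and 3542 CPM in muscle at 6 weeks, with 10 and 9 of the 10 detected, and to 968 to 1431 CPM in the 3 older libraries, with 3 to 8 detected. Muscle cells with at least as many fibroblast-marker as muscle-marker UMIs were 17 of 87 and 5 of 23 at 6 weeks, and held 84.4% and 58.7% of the Col3a1 UMIs of their sums. Without such cells 1 of the 6-week libraries fell to 18 muscle cells and dropped out. That left 1 library at 6 weeks and 1 at 18 months, and the fit, with its spread from the 12-month pair alone, called 3 members at each older age, against 0.898% of genes at 12 months and 0.565% at 18 months. DESeq2 called 0 at 18 months, against 0% of genes, and 1 at 12 months, against 0.229%. With edgeR's robust option, which was run before the default, 6 were called at 12 months, against 2.52%, and 2 at 18 months, against 0.953%, and Col1a1 was not among them (edgeR adjusted p = 0.497 and 0.813). Without the first 6-week library 3 were called at 12 months, against 0.712%, and 1 at 18 months, against 0.285%.

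In lymphatic endothelium most fibrillar UMIs at 6 weeks lay in 3 cells. By edgeR 3 of 9 tested members were called lower at 12 months, against 0.92% of 3153 genes, and 3 of 9 at 18 months, against 3.39%. The 18-month group was 1 library, and its calls take their spread from the other groups. They were Col1a1, Col1a2 and Col3a1 in both. At an unadjusted p under 0.05, 5 of 9 were lower at 12 months, against 5.52% of genes, and 4 of 9 at 18 months, against 10.8%. None was called higher, against 0.983% and 4.19%. Between 12 and 18 months 0 of 9 were called, against 0% of genes, and 0 were lower at an unadjusted p under 0.05, against 4.12%. Col1a1 was at 1014.5 and 302 normalised CPM at 6 weeks, 127 and 1.30 at 12 months and 7.32 at 18 months. All 9 tested members were lower in each of the 3 older libraries than in both 6-week libraries, against 18.4% of all genes. The filter on low counts needed a high enough level in only 1 library here. Col1a2, at 958 and 470.5 CPM at 6 weeks and 1.1 to 28.1 CPM later, passed it only through 6-week libraries. So did Col5a2, at 89.3 and 37.3 CPM and then 0 to 2.55 CPM. The counts of members tested and called in this class thus partly reflect the filter. Lymphatic cells with at least as many fibroblast-marker as lymphatic-marker UMIs were 2 of 24 and 1 of 24 at 6 weeks, and these held 97.1% and 100% of the Col1a1 UMIs, 102 of 105 and 37 of 37. Without them Col1a1, Col1a2 and Col3a1 no longer passed the filter on low counts, and 0 members were called at either age. DESeq2 called 1 at 12 months, against 0.19% of genes, and 0 at 18 months, against 0.666%. With edgeR's robust option Col1a2 was still called at both ages and Col1a1 and Col3a1 at neither, while Col4a1 was called at 12 months (2 of 9 in all, against 1.01%). The count was 1 at each age without the first 6-week library, against 0.212% of genes at 12 months and 0.121% at 18 months. It was 7 at 12 months and 6 at 18 months without the first 12-month library, against 0.943% and 2.02%, and 1 at 12 months without the 18-month library, against 0.133%.

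In blood endothelium, fibrillar chains alone were called. At 18 months 2 of 15 tested members were called lower, against 0.0332% of 6021 genes, and at 12 months 3 of 15, against 0.0664%. All were fibrillar, and 0 of 4 basement membrane chains were called. At an unadjusted p under 0.05, 9 of 15 were lower at 18 months, against 4.98% of genes, and 9 of 15 at 12 months, against 6.53%. None was called higher at 12 months, against 0%, or at 18 months, against 0.0166%. Between 12 and 18 months 0 were called, against 0%, and 0 were lower at an unadjusted p under 0.05, against 3.75%. All 4 older libraries lay below both 6-week libraries for 11 of 15 members, against 8.35% of genes. Col5a1, at 45.2 and 39.3 CPM at 6 weeks and 0 to 9.37 CPM later, passed the filter on low counts only through the 6-week libraries. Col3a1 was at 656 and 550 normalised CPM at 6 weeks, 44.9 and 53.0 at 12 months and 116 and 93.2 at 18 months, a log2 change of -3.59 (SE 0.31, edgeR adjusted p = 0.000274) at 12 months and -2.54 (SE 0.29, edgeR adjusted p = 0.00402) at 18 months. Col1a2 was at 425 and 346 at 6 weeks and at 34.7 to 68.9 in the older libraries. Col1a1 was called at 12 months (edgeR adjusted p = 0.009) and not at 18 months (edgeR adjusted p = 0.0746). Col4a1 was at 1114 and 1019, then 709 and 650, then 338 and 729.6, a log2 change of -0.99 (SE 0.33, edgeR adjusted p = 0.369) at 18 months. Col13a1 had a fitted value of 1.04 (SE 0.64, edgeR adjusted p = 0.658) at 18 months.

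Cells rich in fibroblast markers were few in blood endothelium, 24 of 847 and 5 of 175 at 6 weeks. They held 67.7% and 58.6% of its Col1a1 UMIs and 7.37% and 1.89% of its Col4a1 UMIs. Without them 0 members were called at 18 months, where Col3a1 had a log2 change of -1.76 (SE 0.32, edgeR adjusted p = 0.0971), and 2 were called at 12 months, where Col3a1 was at -2.93 (SE 0.33, edgeR adjusted p = 0.00373). Free RNA moved with the fibrillar chains as well: Col1a1 in low-count barcodes was at 3548 and 841 CPM at 6 weeks and 168 to 388 CPM later. With expected free RNA subtracted, Col1a2 and Col3a1 were still called at both ages in blood endothelium. With doublets kept 0 members were called at either age. Counts were 4 at 18 months without the first 18-month or the first 12-month library, against 0.626% and 0.201% of genes. At 12 months they were 6 without the first or the second 18-month library, against 0.438% and 0.453%, and 1 without the second 12-month library, against 0.0197%.

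**Figure D4:**
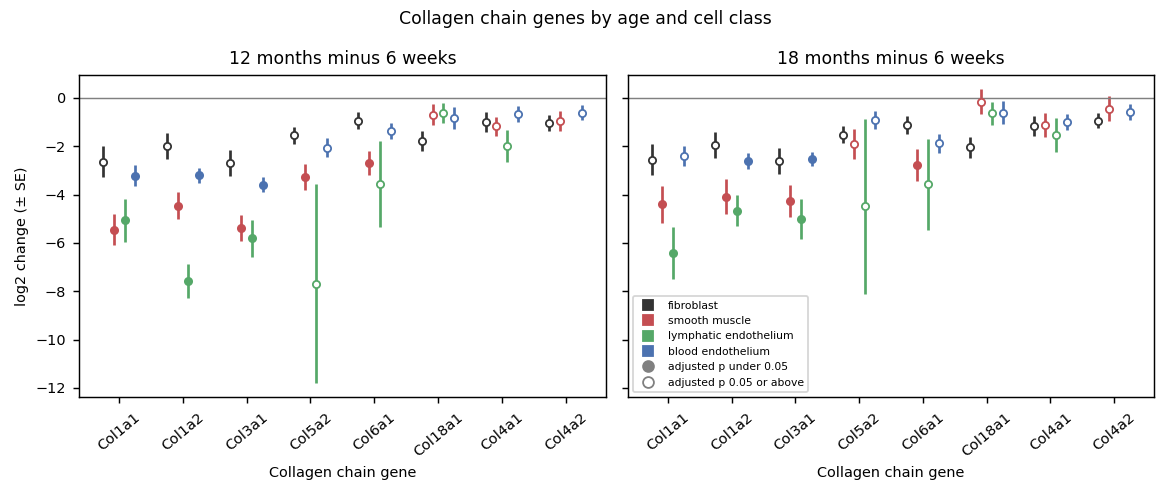
Log2 change (points, with bars of 1 SE) of 8 collagen chain genes at 12 months (left) and 18 months (right) against 6 weeks in 4 cell classes; filled points have an adjusted p under 0.05 in edgeR. The type I and III chains lie lowest in muscle and lymphatic endothelium, Col4a1 and Col4a2 lie between -2.00 and -0.44, and no fibroblast point is filled.

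The stacked bars by library show the make-up of the collagen UMIs. In muscle, fibrillar chains were 80.6% and 44.4% of collagen UMIs at 6 weeks, 22.8% and 18.1% at 12 months and 28.7% at 18 months. In blood endothelium they were 39.6% and 34.2% at 6 weeks, 10.8% and 10.1% at 12 months and 22.2% and 13.9% at 18 months. In macrophages, the measure of free RNA, they were 92.3% and 77.8% at 6 weeks and 54.9% to 65.3% later, the same order over age.

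**Figure D5:**
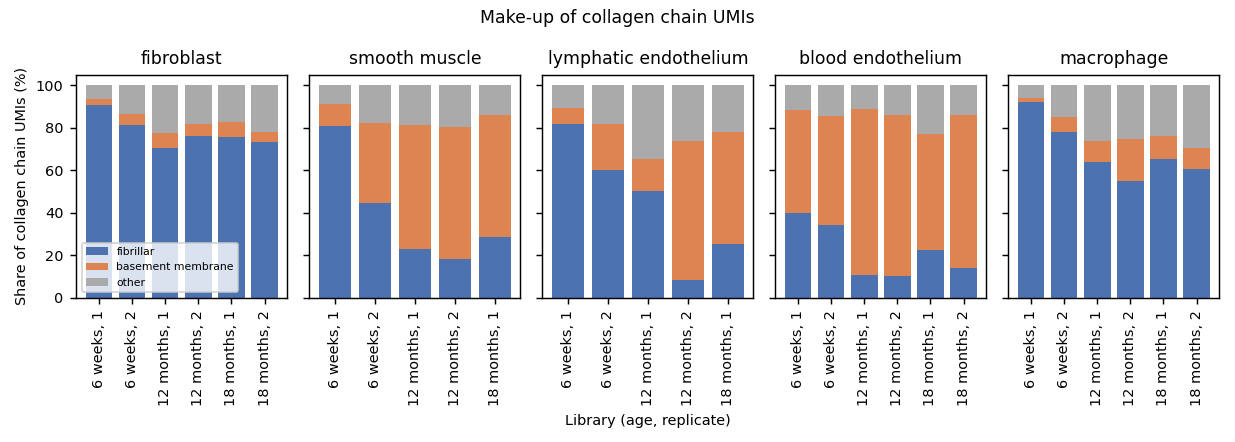
Share of collagen chain UMIs that fell to fibrillar, basement membrane and other chains, in percent, for each library with at least 20 cells of the class. The fibrillar share is highest in the first 6-week library in all 5 classes, and basement membrane chains are 48.7% to 77.9% of the total in blood endothelium.

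Whether a class changed differently from fibroblasts was tested with library as a block. In lymphatic endothelium 2 of 29 members differed at each older age, against 0.552% of genes at 12 months and 0.453% at 18 months. In smooth muscle 1 of 29 differed at 12 months, against 0.519%, and 0 of 29 at 18 months, against 0.122%. In blood endothelium 1 of 27 differed at 12 months, against 0.0662%, and 0 of 27 at 18 months, against 0.0745%. That member was Col8a1, with a difference of 4.79 on the log2 scale (SE 0.86, edgeR adjusted p = 0.0375): it was at 41.9 and 7.86 CPM in blood endothelium at 6 weeks and 29.0 and 30.5 CPM at 12 months, and in fibroblasts at 45.7 and 2.33 CPM, then 0.30 and 1.67 CPM. Its edgeR adjusted p was 0.107 with the robust option, 0.155 with free RNA subtracted and 0.775 without the first 6-week library, so the call was lost in each. Other counts also moved with 1 library: in lymphatic endothelium 0 were called at either age without the second 6-week library.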

How the data were processed

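The authors deposited 1 matrix of raw UMI counts per library; per the submitters' processing notes Cell Ranger 3.0.2 and Seurat were used with mm10. Barcodes under 500 genes or over 10% mitochondrial UMIs were dropped, doublets were marked with Scrublet, and cells were clustered in scanpy 1.11.5 (2000 variable genes without collagens, 30 components, 15 neighbours). Clusters were named from marker lists. UMIs were summed per library and class where at least 20 cells were present, and tested with edgeR 4.0.16 (quasi-likelihood, TMM, filterByExpr) in R 4.3.3, with age as the only term and p-values adjusted over all genes. DESeq2 1.42.0 was an alternative. Total UMIs per library were 9616652 to 28921825. The functions were tested on simulated data.

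The members and lists were chosen with earlier results of these data known. The edgeR fits were first run with its robust option and the calls were seen before the default was taken as the main setting. The planned design names neither, and both are given. Named are the members with most UMIs in each list, the 3 highest in each structural class and fibroblast cluster, members called in an age test, and in lists without members up to 3 genes with the smallest p. Other members named (such as Col13a1, Col20a1, Col23a1 and Col28a1) and genes of those other lists called outside fibroblast sums were chosen after their values were seen. Gene coordinates are from GENCODE M21 and promoter windows from RefSeq.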

Additional observations from a re-analysis of the deposited data

Results flagged for a closer look

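In 6 cases a member's change with age differed between a class and fibroblasts in a test of that difference itself (edgeR, library as a block). In lymphatic endothelium Col1a2 differed by -5.61 and Col5a2 by -9.09 at 12 months, and Col1a1 by -3.45 and Col6a3 by -9.20 at 18 months, all on the log2 scale. Col5a2 rested on 11 and 5 UMIs at 6 weeks and 0 in both 12-month libraries, and Col6a3 on 5 and 9 UMIs at 6 weeks and 0 at 18 months, so these fitted values depend on the prior count and are no measure of size. With free RNA subtracted the calls of Col5a2 and Col6a3 were lost (edgeR adjusted p = 0.515 and 0.384). That of Col1a1 was lost with the robust option (edgeR adjusted p = 0.0722), and that of Col1a2 without the second 6-week library. In smooth muscle Col14a1 differed by -4.80 at 12 months, from 18 and 4 UMIs at 6 weeks and 0 and 1 at 12 months. Its call was lost without the first 6-week or the second 12-month library. Each of these calls was kept in some other settings. In blood endothelium Col8a1 differed by 4.79 at 12 months, a call lost with edgeR's robust option, with free RNA subtracted and without the first 6-week library. The part of fibroblast-marker-rich cells in these differences was not tested.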

How the results depend on the processing

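Each age comparison was repeated in 16 to 18 other ways (8 within clusters). The counts below show only how the number of called members moved with the setting. They come without the share of all genes called, so they do not set collagens against other genes. Members called lower in fibroblasts were 0 in edgeR's main fit. DESeq2 called 6 at 18 months and 7 at 12 months, and edgeR with no filter on low counts 12 and 12. Labelled sex as a replicate block with the 12-month labels exchanged gave 2 and 1. The robust option, run first, gave 1 in lymphatic endothelium at 18 months, 1 called higher there between 12 and 18 months, 2 in muscle at 18 months, 1 in cluster 7, and, for differences from fibroblasts, 1 and 4 in lymphatic endothelium at 18 and 12 months and 0 in blood endothelium at 12 months. DESeq2 gave 0 and 1 in lymphatic endothelium, 0 and 1 in muscle, 1 in cluster 7 and 0 in cluster 8. Without the filter, blood endothelium had 7 and 7 and lymphatic endothelium 6 and 7. Keeping doublets gave 0 and 0 in blood endothelium, 0 in muscle at 18 months and 1 called higher in lymphatic endothelium between 12 and 18 months. Leaving out cells rich in fibroblast markers, chosen after seeing the data, gave 0 in blood endothelium at 18 months, 0 and 0 in lymphatic endothelium and 3 in muscle at 12 months. Thinned sums gave 4 in muscle at 12 months. With free RNA subtracted, differences from fibroblasts numbered 0 in blood endothelium at 12 months and 4 in lymphatic endothelium at 18 months. Labelled sex as a replicate block gave 1, 3 and 0 in clusters 5, 7 and 8, and exchanged labels gave 1 called higher in lymphatic endothelium between 12 and 18 months. Deviations of same-numbered fibroblast libraries correlated at -0.26, 0.20 and -0.53. The signs were mixed, and whether the numbers as labelled pair the libraries was not tested. For libraries with the same Xist state the values were 0.26, 0.20 and 0.53. With 2 libraries per age the deviations mirror each other, so exchanging the 12-month pair only turns signs. The second set is therefore no separate evidence, and a pairing by Xist state may or may not hold. Schwann collagen was 1.22% of UMIs at 1000 genes or more and 1.11% with doublets kept, against 1.01%. Leaving out 1 library gave 2 to 4 and 1 to 6 in blood endothelium at 18 and 12 months, 1 to 6 and 1 to 7 in lymphatic endothelium, 0 to 2 in either direction there between 12 and 18 months, 1 to 5 and 3 to 7 in muscle, and 0 to 7, 0 to 7 and 0 to 3 in clusters 5, 7 and 8 (in cluster 8 the 1 called without the first 6-week or first 18-month library was higher). For differences from fibroblasts it gave 0 to 2 and 1 to 2 in blood endothelium, 0 to 6 and 0 to 7 in lymphatic endothelium and 0 to 2 in muscle at 12 months. In fibroblasts signs changed for 8 members when a library was left out: Col14a1 (-0.11 to 1.08 at 18 months, -0.02 without the first 6-week library, and -0.23 to 0.87 at 12 months), Col16a1 (-0.93 to 0.0067 at 18 months), Col23a1 (-1.27 to 0.64 at 18 months, -1.15 to 0.77 at 12 months), Col4a3 (-2.82 to 2.05 and -3.64 to 1.44), Col4a4 (-1.15 to 0.99 and -1.67 to 0.63), Col13a1 (-7.36 to 3.03 and -7.12 to 1.76), Col28a1 (-5.50 to 2.25 and -8.49 to 1.72) and Col6a5 (-1.39 to 2.45 and -1.98 to 3.13), as ranges over all alternatives. The causes were not tested. Not run were equal weights over clusters filled in every library, since 0 qualified, and any Schwann test.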
